A study of Mus musculus with 15 samples.

Results

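Primordial germ cell candidates were the retained cells of middle and late embryos with at least 1 unique molecular identifier (UMI, 1 captured RNA molecule) of *Dppa3*, at least 1 UMI of *Nanos3*, *Dnd1* or *Prdm1*, and 0 UMIs of *Elf5* and *Amn*. They numbered 292 of 85443 retained cells (0.342%) from 9 embryos. *Elf5* and *Amn* mark extra-embryonic ectoderm and visceral endoderm, and their absence removed 23 cells that passed the other conditions. The values of these 6 genes chose the cells, so they are given as descriptions without a test, and *Pou5f1*, which chose the comparison cells, is treated the same way.

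Primordial germ cells are the precursors of eggs and sperm. In the mouse they are set aside during gastrulation, when BMP signals from extra-embryonic tissue act on proximal epiblast cells, and they gather at the base of the allantois. PRDM1, PRDM14 and TFAP2C are the transcription factors that repress the somatic programme in them and open the germ line programme, while *Dppa3* (also called Stella), *Nanos3* and *Dnd1* encode proteins that protect the germ line and its RNAs. The transcription factor OCT4, the product of *Pou5f1*, is shared with the epiblast.

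Each embryo was dissociated whole in TrypLE and made into its own 5′ droplet library, the strain being C57/BL6 in the labels and C57BL/6J in the methods of the study. Controls carried at least 1 wild-type *Mesp1* allele and *Mesp1* KO embryos were *Mesp1* Cre/Cre, a Cre knock-in with a PGK-Neo cassette that removes *Mesp1* function. The embryos carried *Rosa26R* Ai14, a red reporter that Cre switches on in the *Mesp1* lineage, except early E7.5 control replicate 1 and late E7.5 control replicate 1. They also carried *Hipp11* *Smarcd3*-F6::eGFP, a cardiac progenitor enhancer reporter with an Hsp68 minimal promoter. The 3 middle controls were aged E7.0, late E6.5 and early E7.5 and the middle KO embryo E7.0, and the 4 late controls were late E7.5 (2 embryos) and E7.75 (2 embryos) and the late KO embryo late E7.5. Late embryos were de-yolked, and tissue for genotyping was removed, from the yolk sac or the extra-embryonic anterior proximal region, so the cells of an embryo that the library holds are not all of its cells.

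Retained cells held between 40545716 and 358439911 UMIs per library, with a median between 3827 and 25728.5 UMIs per cell. The late KO embryo and E7.75 control replicate 1, both of experiment 5, were the shallow ones, at 3827 and 3925.5 UMIs per cell. Between 0.597% and 3.65% of the barcodes of the smaller library recurred in the other library of a pair, over 36 pairs. No barcode was a candidate in 2 libraries, and 21 candidates shared a barcode with a retained cell of another library.

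*Mesp1* itself, in counts per 1e+06 UMIs (CPM) of the summed candidates, was 0 in both KO embryos, at 28.6, 40.5 and 49.7 CPM in the middle controls, and at 71.3, 10.7, 0 and 12.6 CPM in the late controls. In *Pou5f1*-positive cells of the same embryos it was 0.0341 and 0.0949 CPM in the KO embryos against 3.67 to 188 CPM in the controls, so the KO labels match the targeted gene. The candidates of E7.75 control replicate 1, at 0, hold only 9 cells and 51587 UMIs.

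Candidates were rare in every embryo. Their share of retained cells, with the exact Clopper-Pearson 95% interval, was 0.751% (0.430% to 1.22%) in the late E6.5 control, 0.788% (0.573% to 1.06%) in the E7.0 control and 0.375% (0.235% to 0.5678%) in the early E7.5 control. It was 0.946%, 0.175%, 0.0605% and 0.492% in late E7.5 control replicates 1 and 2 and E7.75 control replicates 1 and 2, that is 64, 39, 9 and 66 cells. The *Mesp1* KO embryos gave 0.478% (0.207% to 0.939%, 8 cells) at E7.0 and 0.187% (0.120% to 0.278%, 24 cells) at late E7.5. The late controls thus spanned a wider range than the middle controls, and both KO embryos lay inside the range of the controls of their stage under this rule. These intervals cover counting error only.

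**Figure D1:**
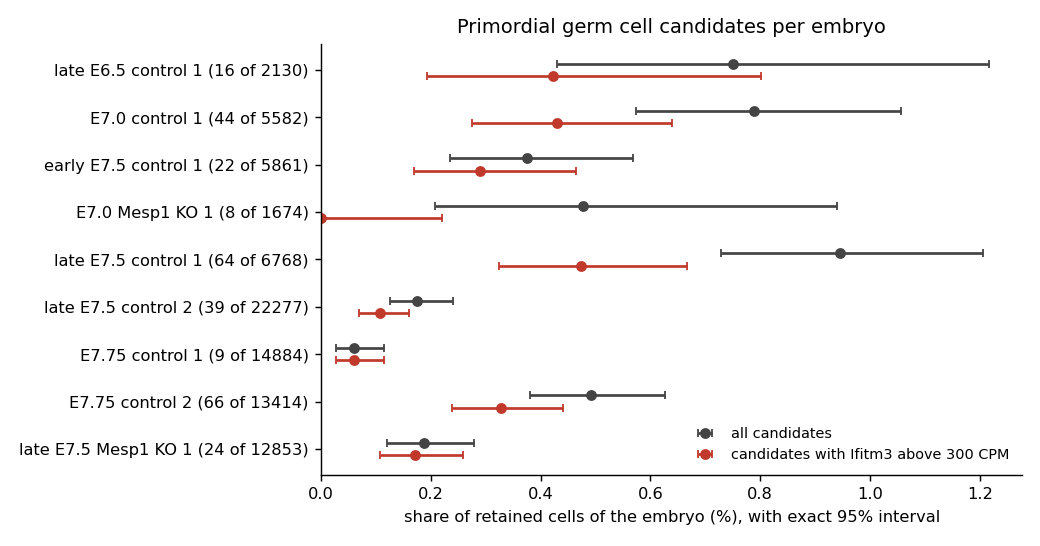
Share of retained cells that were candidates (grey) and candidates with *Ifitm3* above 300 CPM (red) in each of the 9 embryos, with exact 95% intervals; the number of candidates of the number of cells stands beside each name. The E7.0 *Mesp1* KO embryo has 8 candidates, none of them above the limit, and late E7.5 control replicate 1 has the highest share at 0.946%.

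The mean of the within-stage differences in share, KO less control, came to -0.196 percentage points, and a two-sided exact permutation of embryos within stages gave p = 0.55, where 0.05 is the smallest value that 20 permutations allow. Late controls (0.418% ± 0.396, SD, n = 4) differed by -0.220 percentage points from middle controls (0.638% ± 0.228, SD, n = 3), with p = 0.371 in a two-sided exact permutation test. Adjusted over these tests and both reporter tests below, 4 in all, the exact permutation p-values were 0.55 and 0.495. The comparisons between embryos share their control embryos. Within experiment 7 the difference had the other sign, at 0.0806 percentage points (2 late against 3 middle controls). Within experiment 5 the late KO embryo, at 0.187%, stood above E7.75 control replicate 1, at 0.0605%, with 1 embryo of each genotype. Stricter rules placed the E7.0 KO embryo below each middle control. With at least 2 *Dppa3* UMIs its share was 0.0597% against 0.282%, 0.394% and 0.273%, and with at least 2 co-markers it was 0.119% against 0.282%, 0.322% and 0.205%. The late KO embryo stayed inside the range of the late controls, at 0.0700% against 0.0403% to 0.443% and at 0.0856% against 0.0403% to 0.281%. The KO difference over both stages was -0.207 and -0.120 percentage points, with p = 0.15 and p = 0.2 in the same exact permutation test. The middle stage has 1 KO embryo, of experiment 8, while its 3 controls are all of experiment 7. Genotype and experiment cannot be told apart at that stage, and it was not tested alone.

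Depth bears on these shares, since a shallow cell is less likely to show a UMI of a rare RNA. When each cell was first thinned to 2000 UMIs, which left out 10194 shallower cells, 51 of 75249 cells passed the rule, and shares ran from 0% in the E7.0 KO embryo to 0.174% in the E7.0 control. In 2573 blood cells, taken as cells with at least 1% globin UMIs, 0.194% held a *Dppa3* UMI and none passed the rule, at a median of 10020 UMIs. This allows a share of up to 0.117% by 3 counts and 0.143% by the exact interval. In 6637 visceral endoderm-like cells with at least 3 *Amn* UMIs, whose median was 21930 UMIs, 0.226% held a *Dppa3* UMI. Among cells with a *Pou5f1* UMI the *Dppa3* share was 1.77%, at a median of 18494.5 UMIs.

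Most candidates were chosen on few molecules. *Dnd1* was seen in 241 candidates, *Prdm1* in 146 and *Nanos3* in 92, and in 111 cells *Dnd1* alone met the second condition. Exactly 1 *Dppa3* UMI was present in 136 cells and 2 or more in 156, with a maximum of 36. At least 2 of the co-markers were present in 134 cells and all 3 in 53. *Pou5f1* was detected in 285 of the 292, although the rule did not ask for it, beside 46.7% of all retained cells.

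The candidates at the lower edge of the rule looked different from those well inside it. The following classes were set after values had been seen, so no test is attached to them. The 111 cells with at least 2 *Dppa3* UMIs and at least 2 co-markers had a median of 1856 CPM of *Ifitm3*, an interferon-induced membrane protein long used as a germ cell marker, and a median of 0 CPM of *Dnmt3b*, the de novo DNA methyltransferase of the epiblast. The 113 cells with 1 *Dppa3* UMI and 1 co-marker had medians of 52.1 CPM of *Ifitm3* and 276 CPM of *Dnmt3b*. The 68 cells in between had 924 and 75.7 CPM. The classes rest on UMI counts and so depend on depth: in the shallow late KO embryo 7 of the 9 cells at the lower edge were above 300 CPM of *Ifitm3*, and their sum was 1870 CPM, inside the range of 1436 to 3448 CPM of the cells well inside the rule in 6 embryos.

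*Ifitm3* fell into a high and a low range, and a limit of 300 CPM, again chosen after the values had been seen, separated them with 14 cells within 1.5-fold of it. Above the limit were 181 of 292 candidates (62.0%), which was 97.3% of the cells well inside the rule, 73.5% of those in between and 20.4% of those at its lower edge. Of the 92 candidates with *Nanos3*, 90 were above it, and of the 111 with *Dnd1* as the sole co-marker 36 were. *Dnmt3b* was at 0 UMIs in 123 of the 181 cells with high *Ifitm3* (68.0%) and in 3 of the 111 with low *Ifitm3* (2.70%). The latter were deeper, with a median of 31557 UMIs against 19723, and a deeper cell is less likely to hold 0 UMIs of a gene. The part of depth in this difference was not tested. *Psmb8* was detected in 59.1% of the cells with high *Ifitm3* and 9.91% of those with low *Ifitm3*, and *Tfap2c* in 81.2% and 42.3%. Among *Pou5f1*-positive cells without *Dppa3*, 3.01% were above the limit.

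**Figure D2:**
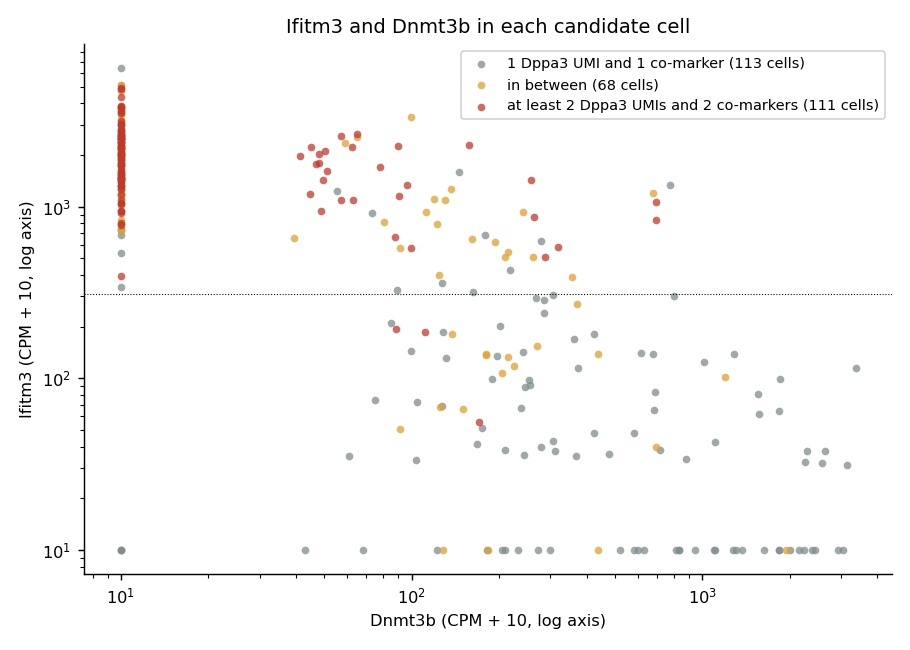
*Ifitm3* against *Dnmt3b* in each of the 292 candidates (CPM + 10, logarithmic axes), coloured by how many UMIs met the rule; the dotted line is 300 CPM of *Ifitm3*. Cells well inside the rule (red) gather at high *Ifitm3* with *Dnmt3b* at 0, and cells at the lower edge (grey) spread over the low range of *Ifitm3* with *Dnmt3b* present.

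At the threshold itself the values were close. Summed over cells, *Ifitm3* was 1745 CPM in the cells well inside the rule, 155 CPM in those at the lower edge, 114 CPM in 412 cells with *Dppa3* and no co-marker and 128 CPM in 230 cells with at least 2 co-markers and no *Dppa3*. *Pou5f1*-positive cells without *Dppa3* stood at 40.0 CPM. The 23 cells removed for an *Elf5* or *Amn* UMI had 640 CPM of *Ifitm3* and 81.3 CPM of *Psmb8*, together with 1037 CPM of *Apoa1*, an apolipoprotein of visceral endoderm. Among genes that the rule did not use, *Tfap2c* was at 176 and 31.6 CPM well inside the rule and at its lower edge, *Prdm14* at 29.8 and 2.69 CPM and *Kit* at 98.2 and 11.8 CPM. By embryo *Tfap2c* was higher well inside the rule in 5 of 6, and lower in the late KO embryo, at 108 against 316 CPM. The cells are therefore called candidates throughout.

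The embryos differed in this make-up. High *Ifitm3* was found in 24 of 44, 9 of 16 and 17 of 22 candidates of the E7.0, late E6.5 and early E7.5 controls, and in 32 of 64, 24 of 39, 9 of 9 and 44 of 66 candidates of late E7.5 control replicates 1 and 2 and E7.75 control replicates 1 and 2. In the late KO embryo 22 of 24 were high (91.7%). This embryo and E7.75 control replicate 1 are the shallow libraries of experiment 5, at 3827 and 3925.5 UMIs per cell. The part of depth in their make-up was not tested. In the E7.0 KO embryo 0 of 8 were high, 0 of 1674 retained cells, which allows a share of up to 0.179% by 3 counts and 0.220% by the exact interval. The E7.0 control had 0.430% (0.276% to 0.639%). The late E6.5 control had 0.423% (0.193% to 0.801%) and the early E7.5 control 0.290% (0.169% to 0.464%), intervals that reach below 0.220%. Each KO stage is 1 embryo, and the E7.0 KO embryo is of experiment 8 where the middle controls are of experiment 7. The difference was not tested because the limit was chosen on these values. The *Ifitm3*-high share of retained cells in late controls ran from 0.0605% to 0.473%, with 0.171% in the late KO embryo.

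A scorer that compares cells with simulated pairs marked 88 of the 292 candidates (30.1%) as likely doublets, a share that was 45.9% among those well inside the rule and 15.9% at the lower edge. Unmarked were 204 of the 292 candidates and 34535 of 39218 *Pou5f1*-positive cells without *Dppa3*, so candidates were marked more often. Most marked candidates came from 2 libraries, E7.75 control replicate 2 with 37 of 66 and late E7.5 control replicate 2 with 29 of 39. Late E7.5 control replicate 1 had 3 of 64 and the early E7.5 control 9 of 22. The number marked was set to rise with the barcodes of a library. Candidates were also deeper than the comparison cells, with a median of 23880.5 against 18346.5 UMIs. Without the marked cells the share was 0.0551% in late E7.5 control replicate 2, 0.244% in E7.75 control replicate 2, 0.0305% in E7.75 control replicate 1 and 0.234% in the early E7.5 control. The other 5 embryos lay between 0.200% and 0.956%. The part of doublets in the make-up was not tested.

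To describe what else the candidates expressed, their summed UMI counts were compared within each embryo with those of cells that had *Pou5f1* and no *Dppa3*, 35707 cells in the 7 embryos with at least 10 candidates, 6 controls and the late KO embryo. These held 275 of the 292 candidates. A *Pou5f1* UMI was present in 46.7% of all retained middle and late cells, in 11.6% of the blood cells and in 11.8% of the visceral endoderm-like cells. The comparison cells are thus a mixed set of cell types and not epiblast alone. By edgeR's quasi-likelihood test with the embryo as a block and Benjamini-Hochberg adjustment, 1326 of 12527 genes were higher in candidates (10.6%) and 1873 lower (15%), with a median log2 fold change of -0.06. Without the embryo block 633 genes were higher and 510 lower. After thinning every cell to 2000 UMIs 203 and 518 were, and without marked doublets 891 and 1156. In bulk sums of this kind, fewer cells with a gene and less RNA per cell cannot be told apart.

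Of 14 tested genes of the primordial germ cell list, 11 were higher and 1 was lower, with a median log2 fold change of 2.12. Over all genes tested 10.6% were higher and 15% lower, with a median of -0.06. A gene entered the tests by its level in either cell set. *Prdm14*, very low in the comparison cells, entered by its candidates, and *Itgb3* and *Smc1b* did not enter. The count and the median thus depend in part on this filter. *Ifitm3* ranged from 484 to 2437 CPM over the 7 embryos, with a median of 820 CPM, against 27.3 to 82.3 CPM in the comparison cells (log2 fold change 4.42, SE 0.09, adjusted p = 2.32e-26). The late KO embryo was the highest and the late E6.5 control the lowest, and the candidates of every embryo lay above the comparison cells of all embryos. Among tested genes, 1.81% had such a separation upwards.

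*Tfap2c*, which encodes a germ cell transcription factor, was at 73.9 to 238 CPM (median 104) in candidates and at 4.68 to 16.6 CPM in the comparison cells, again without overlap (log2 fold change 3.25, SE 0.16). *Prdm14*, whose product represses the DNA methylation machinery of the epiblast, was at 8.51 to 25.7 CPM against 0.0682 to 0.759 CPM, a log2 fold change of 6.69 (SE 0.36). *Kit*, the receptor that germ cells use for survival and migration, was at 15.6 to 97.5 CPM against 5.26 to 8.90 CPM (2.66, SE 0.19). *Kit* was lowest in the late E6.5 and E7.0 controls, at 15.6 and 19.5 CPM, and was at 37.3 CPM or more in the other embryos.

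The other members that rose were *Alpl* (tissue non-specific alkaline phosphatase, the classical stain for these cells), *Klf2*, *Ifitm1*, *Rhox6*, *Rhox9*, *Pecam1* and *Dppa5a*, with log2 fold changes between 1.38 and 4.89. *Rhox5* fell by 3.79 (SE 0.30), and with comparison cells that also lacked *Elf5* and *Amn* its value was -1.09 with adjusted p = 0.0668. *Elavl2* (0.25) and *Cxcr4*, the receptor for the chemokine that guides germ cells (-0.55), were not called, and *Itgb3* and *Smc1b* were too low to be tested. Of 14 genes of the later germ line, 11 were too low to test, and *Mael* and *Mov10l1* had no UMI in candidates of the 7 embryos. *Ddx4*, which encodes the RNA helicase VASA, was called higher, from 0 to 4.202 CPM against 0.664 to 2.11 CPM (log2 fold change 1.41, SE 0.37, adjusted p = 0.00520), and was lost without marked doublets or without E7.75 control replicate 2.

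**Figure D3:**
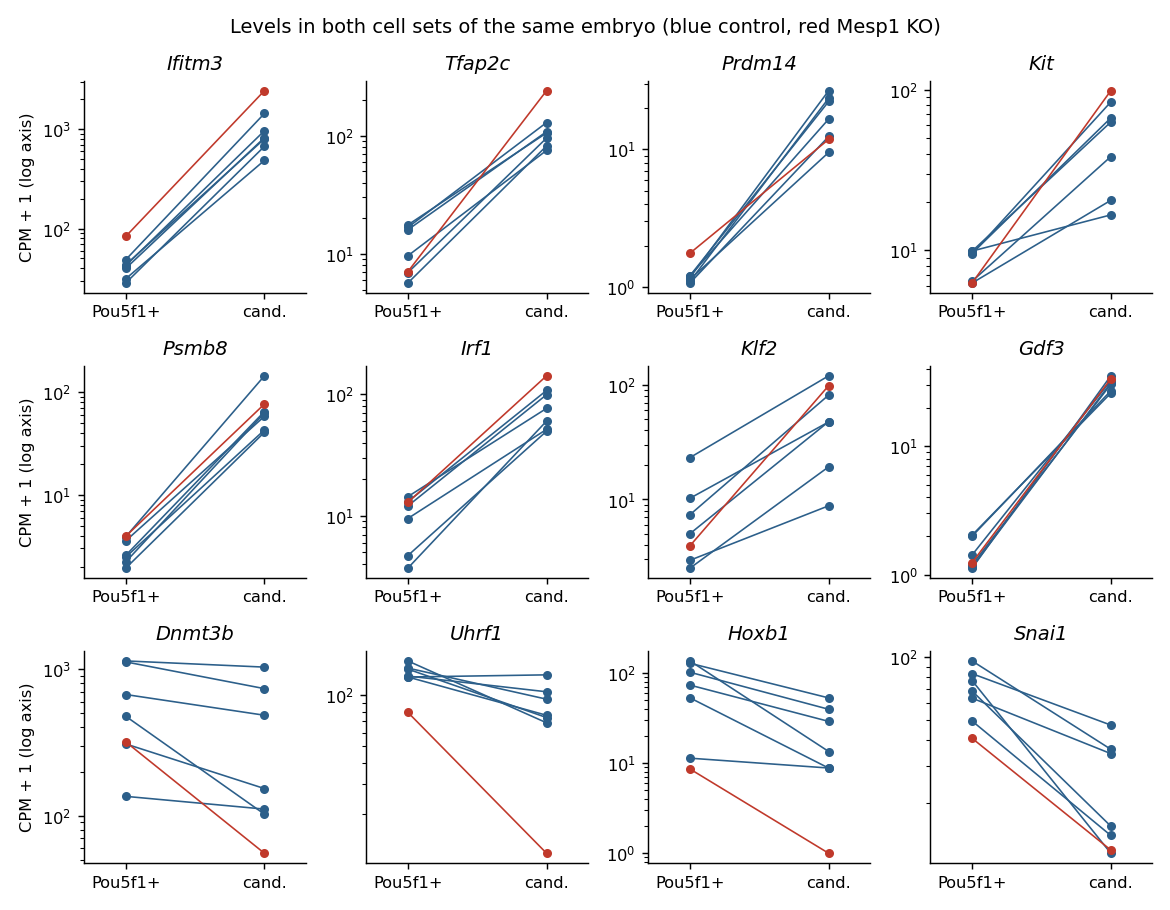
Levels (CPM + 1, logarithmic axes) of 12 genes in *Pou5f1*-positive cells without *Dppa3* and in candidates of the same embryo, joined by a line, for 6 controls (blue) and the late *Mesp1* KO embryo (red). *Ifitm3*, *Tfap2c*, *Prdm14*, *Psmb8*, *Irf1* and *Gdf3* rise in each embryo without overlap between the sets, and *Hoxb1* and *Snai1* fall in each embryo.

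Pluripotency genes divided, with 8 of 17 tested higher, 3 lower and a median log2 fold change of 0.36. Over all genes tested 10.6% were higher and 15% lower. *Gdf3*, a TGF-beta family ligand, was at 24.9 to 34.4 CPM in the candidates of the 7 embryos and at 0.121 to 1.03 CPM in the comparison cells (log2 fold change 6.34, SE 0.38), and summed to 64.8 CPM well inside the rule and 2.35 CPM at its lower edge. *Nanog* was higher in candidates of every embryo, at 23.6 to 101.5 CPM against 3.82 to 41.1 CPM (1.56, SE 0.16), with the late E6.5 control highest in both cell sets. *Esrrb*, *Tfcp2l1*, *L1td1*, *Tdh* and *Nodal* also rose, and *Sox2* was just past the threshold (0.36, adjusted p = 0.0497). *Tdgf1*, *Fgf4* and *Trap1a* fell. *Sall4* (0.16), *Lin28a* (-0.16) and *Lin28b* (-0.25) were not called.

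Of 10 primed epiblast genes, 6 were lower and 3 higher, with a median of -0.64, beside 15% lower and 10.6% higher over all genes tested. *Dnmt3b* was at 54.1 to 1035 CPM in candidates and 134 to 1141 CPM in the comparison cells, lower in each embryo (log2 fold change -0.82, SE 0.15, adjusted p = 0.000105) with wide overlap between the sets. The E7.0, late E6.5 and late E7.5 replicate 1 controls kept it at 1035, 737 and 484 CPM, and the other 4 embryos were at 152 CPM or less. The sum over all candidates mixes unlike cells: well inside the rule *Dnmt3b* was at 51.9 CPM and *Otx2* at 4.03 CPM, at the lower edge at 819 and 54.4 CPM, and in *Pou5f1*-positive cells at 499 and 40.1 CPM, a description without a test. *Fgf15* (-3.26), *Fgf5* (-1.37), *Slc7a3* (-0.72), *Otx2* (-0.68) and *Pou3f1* (-0.60) also fell. *Epcam* (0.68), *Cdh1* (0.34) and *Sox3* (0.79) rose, but *Cdh1* was at 30.6 CPM well inside the rule, 60.1 CPM at its lower edge and 32.7 CPM in *Pou5f1*-positive cells.

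Of 18 genes of DNA methylation and chromatin 2 were higher and 6 lower over all candidates, with a median of -0.16. Over all genes tested 10.6% were higher and 15% lower. *Uhrf1*, which brings the maintenance methyltransferase to replicating DNA, was at 130, 93.5, 72.7, 103, 67.7 and 75.03 CPM in the 6 controls and at 10.8 CPM, a single UMI, in the late KO embryo, against 78.2 to 157 CPM in the comparison cells (-0.71, SE 0.11). *Dnmt3a* (-0.67), *Ehmt1* (-0.52), which encodes a histone H3K9 methyltransferase, *Tet3* (-1.19), *Hdac6* (-0.80) and *Prmt5* (-0.25) fell, and *Kdm3a* (0.60), an H3K9 demethylase, and *Cbx7* (0.61) rose. *Dnmt1* (0.04, SE 0.09), *Tet1* (0.31) and *Ezh2* (-0.15) were not called. Here too the classes differed, with *Uhrf1* at 35.03, 121 and 135 CPM and *Dnmt3a* at 17.3, 84.6 and 75.8 CPM well inside the rule, at its lower edge and in *Pou5f1*-positive cells, while *Dnmt1* was at 118, 116 and 111 CPM.

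Beside 15% lower and 10.6% higher over all genes tested, 15 of 24 somatic mesoderm and *Hox* genes were lower and 6 higher, with a median of -1.04. Their summed level went the other way and was higher in candidates of 7 of 7 embryos, at 1419 to 2033 CPM against 806 to 2024 CPM. *Hoxb1* was at 0 to 51.7 CPM in candidates against 7.59 to 134 CPM (-1.71, SE 0.16), and *Snai1*, a driver of epithelial-mesenchymal transition, at 10.4 to 46.1 against 39.7 to 94.8 CPM (-1.54, SE 0.15). Both were lower in candidates of each of the 7 embryos. *Hoxb2* (-1.66), *Tbx6* (-1.97), *Hand2* (-2.15), *Eomes* (-1.07) and *Mesp1* (-0.92) also fell. *Fgf8* (2.08, SE 0.09), *Msx1* (1.66, SE 0.09), *Cdx2* (1.24), *Msx2* (1.19), *Wnt3* (0.83) and *Evx1* (0.35) rose, genes known from the proximal posterior epiblast and streak. *T* (Brachyury), at 106 to 271 CPM against 43.6 to 374 CPM, was not called (0.23, adjusted p = 0.408). *Fgf8* and *Msx1* had no overlap between the sets.

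Of 14 tested BMP signalling genes 4 were higher and 1 lower, and their median of -0.04 was near that of all genes. The target genes *Id1* (0.82) and *Smad7* (1.08), the pseudoreceptor gene *Bambi* (0.46) and the ligand gene *Bmp4* (0.75) rose, and *Bmp2* (-1.94) fell. The receptor genes *Bmpr1a*, *Acvr1* and *Bmpr2* and the transducer genes *Smad1*, *Smad5* and *Smad4* were not called. Of 17 cell cycle genes, 3 were higher (*Cdkn1a* 0.91, *Ccnd3* 0.43, *Top2a* 0.35), 4 lower (*Myc* -1.30, *Ccne1* -0.63, *Ccnd1* -0.48, *Cdk1* -0.28) and the median was -0.10. The shares over all genes tested were 10.6% higher and 15% lower.

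**Figure D4:**
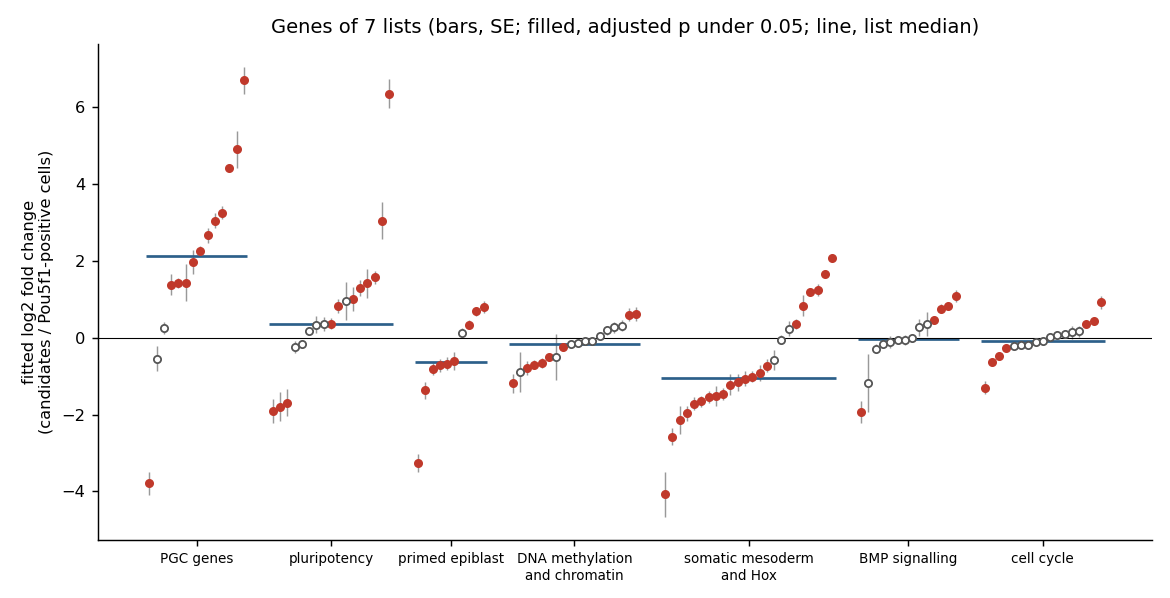
Fitted log2 fold change of candidates over *Pou5f1*-positive cells without *Dppa3* for the tested genes of 7 lists, each point a gene with its standard error; filled points passed the adjusted threshold of 0.05 and the horizontal line is the list's median. The germ cell list has a median of 2.12 and the somatic mesoderm and *Hox* list one of -1.04.

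Positions in mm10, from GENCODE M21, are given for the genes the description turns on. *Ifitm3* lies at chr7:141009586-141010770 on the minus strand, *Prdm14* at chr1:13113457-13127163 on the minus strand and *Tfap2c* at chr2:172549593-172558622 on the plus strand. *Psmb8* lies at chr17:34197721-34201454 and *Irf1* at chr11:53770014-53778374, both on the plus strand.

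The 12 genes with the largest rise at 30 CPM or more that moved the same way in each embryo were *Sprr2a3*, *Psmb8*, *Ifitm3*, *Nmi*, *Fam131c*, *Dnaaf3*, *Tapbp*, *Slc40a1*, *Tfap2c*, *Irf1*, *Klf2* and *Ttc28*. Several belong to interferon response and antigen processing, which in adult tissue equip cells to display peptides on MHC class I. *Psmb8*, a catalytic subunit of the immunoproteasome, was at 39.8 to 144 CPM, with a median of 61.8, against 0.928 to 2.94 CPM in the comparison cells (log2 fold change 5.16, SE 0.19, adjusted p = 3.33e-19). The early E7.5 control was the highest and late E7.5 control replicate 2 the lowest.

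*Irf1*, an interferon-regulated transcription factor gene, was at 48.6 to 141 CPM against 2.70 to 13.3 CPM (3.19, SE 0.17), *Nmi*, an interferon-induced partner of STAT and MYC proteins, rose by 4.26 (SE 0.21), and *Tapbp*, which encodes the chaperone tapasin that loads MHC class I, by 3.31 (SE 0.15). None of these 4 overlapped between the cell sets. *Sprr2a3*, a small proline-rich protein gene with near-identical neighbours among which reads may be split, ranged from 2.15 CPM in late E7.5 control replicate 2 to 455 CPM in the late KO embryo and overlapped the comparison cells. *Klf2* (7.81 to 119 CPM) overlapped as well, and *Slc40a1* (the iron exporter ferroportin), *Dnaaf3*, *Fam131c* and *Ttc28* did not.

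Because *Psmb8*, *Irf1* and *Ifitm3* stood together, their promoters are shown, from RefSeq on GRCm38.p6, with matches in capitals. A search was made after the genes were known for TTCNNNGAA, a STAT-type palindrome that reads the same on both strands, and for an interferon-response-type repeat (GAAA, any 2 bases, GAAA) on both strands, from 250 bases before to 50 after each start. The starts are those of RefSeq, the first of them for *Irf1*. For *Psmb8* and *Ifitm3* they differ from the GENCODE gene given above, so that the *Psmb8* stretch lies inside the longer GENCODE gene. The *Psmb8* and *Irf1* stretches run from 150 to 31 bases before the RefSeq start, at chr17:34198045-34198164 on the plus strand and chr11:53769864-53769983 on the plus strand. The *Ifitm3* stretch is the first 30 bases from the start, at chr7:141010715-141010744 on the minus strand.
Psmb8: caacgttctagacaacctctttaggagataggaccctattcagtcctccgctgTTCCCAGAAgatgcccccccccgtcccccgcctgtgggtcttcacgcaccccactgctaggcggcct
Irf1: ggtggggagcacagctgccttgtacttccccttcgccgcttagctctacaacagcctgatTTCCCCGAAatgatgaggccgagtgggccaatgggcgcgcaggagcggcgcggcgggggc
Ifitm3: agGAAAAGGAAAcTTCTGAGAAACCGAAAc

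In *Ifitm3* the capitals are 3 matches, a repeat, then TTCTGAGAA overlapping a second repeat by the letters GAA. TTCNNNGAA was present in the promoters of 5 of the 10 leading genes that had an entry (*Sprr2a3*, *Psmb8*, *Ifitm3*, *Dnaaf3* and *Irf1*). It was in 9.18% of 937 genes called higher, 7.98% of 8723 tested genes and 9.55% of 27025 genes of the whole set. The repeat was present in 1 of the 10 (*Ifitm3*), in 3.84% of the called genes, 3.34% of the tested genes and 3.99% of the whole set. In the genes called higher both words were thus slightly above the share of tested genes and slightly below that of the whole set. These differences were not tested. A match is a description of letters and not a site.

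Of the 12 leading genes that were lower, 7 are products of visceral endoderm or blood, *Apoa1*, *Apom*, *Rbp4*, *Ttr* and *Apoc2*, and the embryonic globins *Hbb-bh1* and *Hba-x*. *Apoa1* was at 1.56 to 21.7 CPM against 46.6 to 179 CPM (-4.55, SE 0.17), below every comparison value, as 0.878% of tested genes were. The rule itself excludes *Amn* and *Elf5*, and comparison cells were not filtered for them. When they were, *Apoa1* stood at -0.92 (adjusted p = 0.00481) and *Rbp4* at -0.77, while *Ttr* (-0.33, adjusted p = 0.360), *Apom* (-0.73, adjusted p = 0.178) and *Apoc2* (-0.20, adjusted p = 0.642) were no longer called. *Ifitm3* (4.42), *Psmb8* (5.13) and *Tfap2c* (3.37) had nearly the same values as before.

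The other leading genes that were lower were *Fgf3* (-3.26), *Fgf15* (-3.26), *Aplnr* (-3.22), the apelin receptor gene of early mesoderm, *Foxf1* (-2.57) and *Lhx1* (-2.41). *Aplnr* was at 0 to 5.23 CPM against 18.6 to 59.4 CPM in the comparison cells.

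Markers of other cell types were summed in each embryo. Visceral endoderm markers, without *Amn*, summed to 10.9 to 86.6 CPM in candidates against 174 to 723 CPM, with *Trf* and *Cldn2* at 0. Of these, 9 of 9 tested were lower, beside 15% of all genes tested. The rule barred *Amn* and *Elf5* in candidates and not in the comparison cells, so a lower level of these markers is in part built in. Blood markers summed to 0 to 110 CPM against 5.52 to 1645 CPM, with *Hbb-y*, *Klf1* and *Nfe2* at 0. Endothelial markers summed to 7.52 to 32.5 against 36.0 to 67.0 CPM, and nascent and paraxial mesoderm markers, of which 8 of 9 were lower, to 70.3 to 142 against 85.3 to 481 CPM.

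Extra-embryonic ectoderm markers, without *Elf5*, summed higher in candidates, at 515 to 882 against 154 to 405 CPM. Of 10 tested 3 rose, among them *Cdx2* and *Tfap2c*, both shared with other lists, while *Eomes* and *Rhox5* fell and *Esx1*, *Sox21*, *Ascl2*, *Tead4* and *Ddah1* were not called. Definitive endoderm markers had 2 of 7 higher, *Sox17* (1.47) and *Cpm* (1.10), and *Cer1* and *Spink3* lower, and *Foxa2* was at 0 to 20.8 CPM. Parietal endoderm markers had 1 higher (*Lamb1*, 0.81) and 4 lower of 7. Of neural and surface ectoderm markers *Tfap2a* (0.88) and *Dlx5* (0.59) rose of 6 tested, although well inside the rule they were at 4.43 and 7.25 CPM, below the 12.5 and 12.8 CPM of *Pou5f1*-positive cells, of allantois markers *Bmp4* rose and 2 of 6 fell, and of node markers *Foxj1* (-0.97) fell of 4. Beside these counts, 10.6% of all genes tested rose and 15% fell. The part of these markers in the results above was not tested.

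Cardiac markers stood apart in 1 library. They summed to 1024 CPM in the candidates of late E7.5 control replicate 2, with *Myl7* at 547 CPM, *Actc1* at 375 CPM and *Tnnt2* at 89.2 CPM, and to between 19.0 and 43.3 CPM in the other 8 embryos. A single cell of that embryo held 666 of its 941 UMIs of these 3 genes. With a second cell of the same embryo it was one of 2 candidates there with at least 10 such UMIs, and both were marked as doublets and had high *Ifitm3*. Globin RNA was also highest in the candidates of this embryo, with *Hbb-bh1* at 59.1 CPM, where its comparison cells had 854 CPM. Without this embryo 1168 of the 1326 higher genes and 1250 of the 1873 lower genes were still called.

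With the late KO embryo as the only KO embryo with 10 candidates, candidates of KO and control embryos were compared with stage as a covariate. Of 9401 genes, 18 were higher (0.191%) and 5 lower (0.0532%), at a median log2 fold change of -0.47 over all genes tested. The KO embryo is assumed to vary like the controls, and its candidates hold 92342 UMIs, against 384199 to 1665897 in the controls. Without late E7.5 control replicate 1, without E7.75 control replicate 2, or with the 2 embryos of 8 and 9 candidates added, edgeR called no gene, with 979, 980 and 732 at an unadjusted p under 0.05.

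The gene with the largest rise was *Lars2*, a mitochondrial leucyl-tRNA synthetase gene, at 4018 CPM in the KO embryo against 332 to 668 CPM in the 6 controls of the test (3.24, SE 0.35, adjusted p = 0.0274). The *Pou5f1*-positive cells of the same library were at 3856 CPM, and E7.75 control replicate 1, of the same experiment but with 9 candidates, was at 3276 CPM in candidates and 2759 CPM in *Pou5f1*-positive cells. *Ifitm1*, the neighbour and relative of *Ifitm3*, was at 3844 CPM against 830 to 1483 CPM (2.10, SE 0.26), and at 2675 CPM in E7.75 control replicate 1. In the *Pou5f1*-positive cells of the KO embryo it was at 477 CPM, where the 6 controls had 197 to 636 CPM and E7.75 control replicate 1 had 976 CPM. *Bst2*, which encodes the antiviral membrane protein tetherin, was at 249 CPM against 60.03 to 105 CPM, and at 38.8 CPM in E7.75 control replicate 1.

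*2410006H16Rik*, at 877 against 187 to 310 CPM, and *Mrps33*, at 325 against 83.4 to 111 CPM, were the other leading genes that were higher, and E7.75 control replicate 1 was at 310 and 136 CPM. *Map2k2*, *Canx*, *Rrm2*, *Tubb4b* and *Hmgn1* were lower in the KO embryo, by 2.77, 2.68, 2.09, 1.58 and 1.24 on the log2 scale. All 5 were also low in E7.75 control replicate 1, where *Canx* was at 136 CPM and *Hmgn1* at 523 CPM against 43.3 and 596 CPM in the KO embryo and 294 CPM or more and 1430 CPM or more in the other controls. KO genotype and the shallow experiment cannot be told apart within this comparison.

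Of the germ cell list, *Ifitm1* was called and the other 10 tested genes were not. *Ifitm3* was at 2437 CPM in the late KO embryo and 2462 CPM in E7.75 control replicate 1, both above the 484 to 1437 CPM of the other controls (1.68, adjusted p = 0.150), and *Tfap2c* was at 238 CPM against 73.9 to 128 CPM (1.51, adjusted p = 0.131). *Prdm14*, *Gdf3* and *Kit* of the late KO candidates, at 10.8, 32.5 and 97.5 CPM, came from 1, 3 and 9 UMIs. The candidates of the E7.0 KO embryo, in no test across genes, had 17.7 CPM of *Ifitm3*, 7.09 CPM of *Tfap2c*, 0 of *Prdm14*, *Psmb8*, *Gdf3* and *Nanos3*, and 394 CPM of *Dnmt3b* in 282102 UMIs, near the 16.8, 2.32 and 459 CPM of *Ifitm3*, *Tfap2c* and *Dnmt3b* in its *Pou5f1*-positive cells.

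Between late and middle control candidates (3 and 3 embryos), edgeR called 0 of 7991 genes higher (0%) and 0 lower (0%), with 313 at an unadjusted p under 0.05, and DESeq2 called 1 higher. *Ifitm3* was at 484, 671 and 1437 CPM in middle controls and 820, 798 and 963 CPM in late ones (log2 fold change 0.04, SE 0.34), and *Tfap2c* differed by -0.04 (SE 0.22).

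Whether the change with stage differed from that of *Pou5f1*-positive cells was tested by the interaction of stage and cell set in the same 6 controls. Of 13577 genes, 3 had a more positive change in candidates (0.0221%) and 6 a more negative one (0.0442%). *Mesp1* fell from 188, 127 and 83.5 CPM to 73.6, 5.32 and 15.5 CPM in the *Pou5f1*-positive cells, and was at 28.6, 40.5 and 49.7 and then 71.3, 10.7 and 12.6 CPM in candidates (difference 1.68, SE 0.30, adjusted p = 0.0303). *Mixl1* (2.82), another early streak gene, and *Igfbp4* (1.05) had the same sign. Summed over cells of all embryos, *Mesp1* was at 20.9 and 43.7 CPM well inside the rule and at its lower edge, and *Mixl1* at 5.64 and 26.5 CPM. By embryo *Mesp1* was higher well inside the rule in 3 of 6 and lower in 2. The interaction was not run on candidates with 2 co-markers, so it describes all candidates together. *Mixl1*, *Tcf15* and *Epha7* lie under 30 CPM and are named after their values were seen.

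*Ifitm1* was nearly level in candidates, at 830, 995 and 1483 CPM and then 1089, 994 and 959 CPM, where it rose in *Pou5f1*-positive cells from 197, 316 and 480 to 534, 530 and 636 CPM (difference -0.85, SE 0.12, adjusted p = 0.00207). *Igfbp3*, an insulin-like growth factor binding protein gene, was at 393, 226 and 188 CPM in candidates of middle controls and 115, 7.52 and 28.2 CPM in late ones (-1.63, SE 0.28). *Slc2a3*, a glucose transporter gene (-0.85), *Cdkn1c* (-1.04), *Tcf15* (-2.05) and *Epha7* (-3.45) were the other members of the negative group. Leaving out late E6.5 control replicate 1, early E7.5 control replicate 1 or late E7.5 control replicate 1 in turn gave 23, 26 and 29 genes with a more positive and 22, 23 and 27 with a more negative change. Leaving out E7.0 control replicate 1, late E7.5 control replicate 2 or E7.75 control replicate 2 gave 1, 2 and 4 with a more positive and 4, 5 and 2 with a more negative change, and DESeq2 gave 1 and 3. *Mesp1*, *Igfbp4* and *Cdkn1c* lost their call with DESeq2 and without E7.0 control replicate 1, and *Igfbp3* lost it without E7.75 control replicate 2.

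The reporters were not used to choose cells. Ai14 UMIs were found in 1 of 16, 5 of 44, 5 of 39 and 8 of 66 candidates of the late E6.5, E7.0, late E7.5 replicate 2 and E7.75 replicate 2 controls and in 1 of 24 of the late KO embryo. The candidates' share was below that of *Pou5f1*-positive cells in 5 of 5 embryos, with a mean difference of -9.43 percentage points (9.34% against 18.8%, SD of the difference 5.91), and the two-sided exact sign-flip permutation gave p = 0.0625, the smallest that 5 embryos allow, and 0.25 adjusted. In both embryos without Ai14, 3.46% and 2.92% of *Pou5f1*-positive cells still held an Ai14 UMI, which is the background share at their depth. The late KO embryo is shallower, so its 4.17% of candidates, 1 cell, cannot be set against that share directly. Thinned to 2000 UMIs, the background was 0.267% and 0.385%. The late KO embryo then had 4.55% of candidates and 2.65% of *Pou5f1*-positive cells. The mean difference between candidates and *Pou5f1*-positive cells was -0.23 percentage points after this thinning (p = 0.812, exact sign-flip permutation). With comparison cells limited to the candidates' depth it was -11.3 percentage points, lower in 5 of 5 embryos (p = 0.0625, exact sign-flip permutation).

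eGFP UMIs were found in 7.57% of candidates on average over 7 embryos against 9.90% of *Pou5f1*-positive cells, lower in 5 of 7 embryos, with a mean difference of -2.33 percentage points (two-sided exact sign-flip permutation, p = 0.312, adjusted 0.495). The late E6.5 and late E7.5 replicate 2 controls went the other way, at 12.5% against 7.40% and 15.4% against 10.9%.

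**Figure D5:**
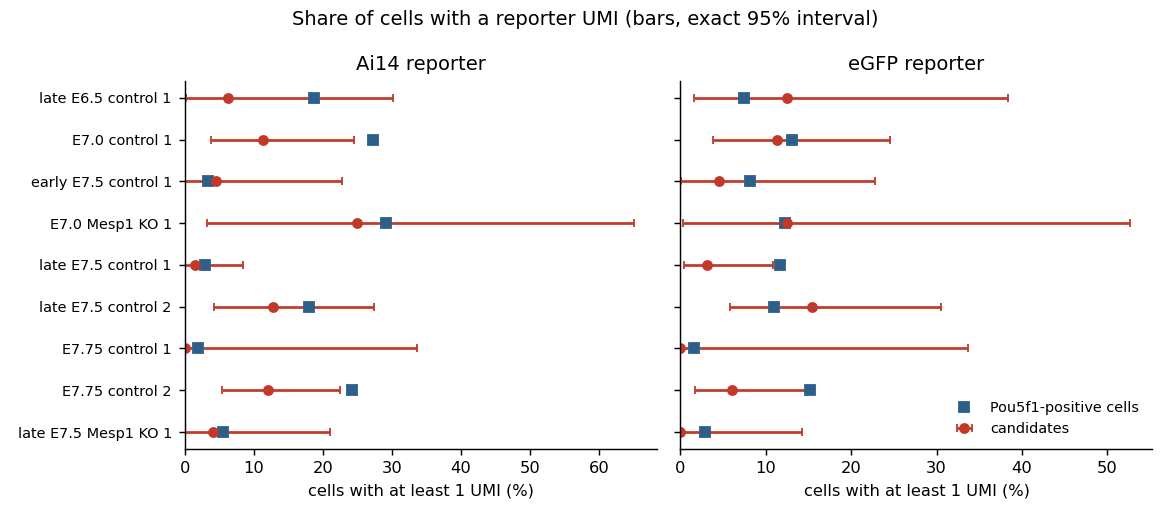
Share of candidates (red, exact 95% intervals) and of *Pou5f1*-positive cells without *Dppa3* (blue) with at least 1 UMI of Ai14 (left) or eGFP (right) in each of the 9 embryos. Early E7.5 control 1 and late E7.5 control 1 carry no Ai14, and their *Pou5f1*-positive cells sit at 3.46% and 2.92%.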

How the data were processed

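Single-cell RNA-seq of 15 mouse embryos was used. The authors ran Cell Ranger 3.0.2 on an mm10 reference extended by both reporter sequences and deposited raw UMI counts per gene and barcode, not normalized. Cells were kept with under 10% mitochondrial UMIs, under 50000 UMIs and 200 to 7000 genes. Groups and ages came from the labels, and the experiment is the number in the library's name. The candidates and gene lists were chosen with earlier results of these data known. *Spink1* of the visceral endoderm markers is by RefSeq the gene that the files name *Spink3*, and it was counted once, among definitive endoderm markers. Some list members are not reported here.

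Counts were summed per embryo and cell set where it had at least 10 candidates. Genes passing filterByExpr were scaled by TMM and tested by edgeR 4.0.16 (quasi-likelihood, Benjamini-Hochberg, threshold 0.05), with the 7 rule genes left out of the tests. Both cell sets come from the same embryo, so the embryo was the block. CPM are per 1e+06 summed UMIs. Genes named are list members and, for candidates against *Pou5f1*-positive cells, up to 12 per direction (5 in other comparisons) with the largest change at 30 CPM or more. The code was tested on simulated data. Doublets were scored against simulated pairs, marking 0.8% of cells per 1000 barcodes, and kept. DESeq2 1.42.0, other filters, cell definitions and left-out embryos were alternatives.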

Additional observations from a re-analysis of the deposited data

Results flagged for a closer look

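Among the 4 late controls, 64 values in candidates were examined for an embryo standing apart from the other 3, and 8 did. Chance gives about 1 in 20 such groups. E7.75 control replicate 1, with 9 candidates, stood apart for *Ifitm3* (2462 CPM, others 798 to 963), *Ifitm1* (2675 CPM, others 959 to 1089) and *Bmp4* (0 CPM, others 41.9 to 49.7). Late E7.5 control replicate 2 stood apart for *Ttc28* (51.6 CPM, others 38.6 to 39.6), *Hbb-bh1* (59.1 CPM), *Hba-x* (48.4 CPM), *Tdgf1* (13.97 CPM, others 0 to 1.31) and the cardiac markers (1024 CPM).

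The stage difference of candidates differed from that of *Pou5f1*-positive cells, by edgeR's test of the interaction, for *Ifitm1* (-0.85), *Mixl1* (2.82), *Slc2a3* (-0.85), *Igfbp3* (-1.63), *Mesp1* (1.68), *Tcf15* (-2.05), *Cdkn1c* (-1.04), *Epha7* (-3.45) and *Igfbp4* (1.05, adjusted p = 0.0497).

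The early embryos (E6.0 to E6.5), which entered no comparison, held 111 cells passing the same rule of 8258 retained cells (1.34%). *Ifitm3* was above 300 CPM in 51 of them (45.9%), with 26 of 46 in the E6.5 control, 11 of 20 in the E6.5 *Mesp1* KO embryo, 7 of 11 in the late E6.0 control and 5 of 26, 1 of 3 and 1 of 5 in E6.0 control replicates 1, 2 and 3. *Dnd1* was the sole co-marker in 65 of the 111, of which 24 were among the 26 of E6.0 control replicate 1. A single cell of the 111 was marked as a doublet (0.901%).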

How the results depend on the processing

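In candidates against *Pou5f1*-positive cells, without the embryo as a replicate block 633 genes were higher and 510 lower, thinned cells gave 203 and 518, and removing doublets left 1156 lower. Leaving out each embryo in turn gave 1054 to 1598 higher and 1288 to 1839 lower. Genotypes and stages could not be paired by embryo, because each embryo has 1 genotype and 1 stage and its replicate number is only a name. The experiment, which some embryos share, was not used as a block. Of 61 named genes, 37 kept direction and call in every alternative run. Reversed values were those of *Dnmt1* (no filter on low counts -0.0093, thinned -0.12, at least 5 candidates -0.026) and *T* (thinned -0.19, at least 2 *Dppa3* UMIs, a setting added after seeing the data, -0.23, without late E7.5 control replicate 2 -0.038, with -0.038 to 0.43 leaving out an embryo), neither called.

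KO against control candidates gave 89 higher and 26 lower with DESeq2, 174 and 186 with no filter, 74 and 13 without doublets, 9 higher with *Pou5f1* required, 0 and 0 with at least 5 candidates, 0 and 0 with 2 co-markers (added after seeing the data), and 0 to 52 and 0 to 40 leaving out an embryo; without the late KO embryo it was not run. Late against middle gave 1 higher with DESeq2, 62 higher and 41 lower with no filter, and 0 to 0 in either direction leaving out an embryo. The stage difference gave 1 higher and 3 lower with DESeq2, 31 and 31 with no filter, 1 and 3 with *Pou5f1* required, and 1 to 29 and 2 to 27 leaving out an embryo. The cause of these moves was not tested. Leaving out an embryo, the share differences lay between -0.262 and -0.108 percentage points for KO and -0.396 and -0.101 for stage, whose sign was the other way within experiment 7 (0.0806), and the reporter differences between -11.4 and -7.81 (Ai14) and -3.57 and -1.20 (eGFP).

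The late KO embryo and E7.75 control replicate 1 limit the depth, at 92342 and 51587 UMIs in candidates, and there a UMI of a gene is worth over 10 CPM.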

Other observations

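Beyond the leading genes, other genes of antigen processing and of the interferon response were higher in candidates; they were listed after *Psmb8*, *Irf1* and *Tapbp* had been seen, and no test of the group was made. *Psme1* and *Psme2*, the subunits of the proteasome activator PA28, were at 396 to 997 and 380 to 892 CPM against 87.6 to 143 and 84.7 to 183 CPM in *Pou5f1*-positive cells (log2 fold changes 2.39 and 2.26), and the pseudogene *Psme2b-ps*, which can share reads with *Psme2*, moved alike (2.32). *Psmb10* (1.501), *Tap2* (4.43), *Isg15* (4.47), *Parp9* (3.20), *Parp12* (4.23), *Ifi35* (3.62) and *Socs1* (1.39) also rose.

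*H2-K1* (0.89) and *H2-D1* (0.48), genes whose relatives can share reads, were called higher as well. *B2m*, the constant chain of MHC class I, was lower (-0.90). *Stat2* (0 to 3.55 CPM) and *Irf9* (0 to 3.12 CPM) were low in candidates and not called, *Tap1* and *Ifit1* were at most 1.56 and 1.08 CPM, and *Nlrc5* had no UMI in candidates of the 7 embryos.

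*Mov10* (2.56) and *Tdrd5* (3.53), genes of the piRNA pathway and its relatives, *Elf3* (2.54), an epithelial transcription factor gene, and *Slpi* (3.87), a secreted protease inhibitor gene, were also higher, named after their values were seen. *Mov10*, *Tdrd5* and *Elf3* had no overlap with *Pou5f1*-positive cells in the 7 embryos.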
